A study of Mus musculus with 8 samples.

Results

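Crem, Fhl5, Rfx2, Rfx3, Foxj1, Sox30, Tcfl5, Tbpl1, Taf7l and Gtf2a1l code for transcription regulators that are known from spermatids, from ciliated cells or from both. These 10 genes were chosen by name, with earlier results of these data known, and all 10 were found among the 23983 genes of the RNA-seq table. Their RNA levels were read in whole testes of C57BL/6J mice at d12, d16 and d24 after birth (p.p.) and at an adult stage, with 1 library per stage and no treatment or allele named in the labels. The study staged the testes by the first wave of spermatogenesis, in which all tubules advance together after birth, to find genes and promoters that are active in haploid germ cells. The number of animals behind each library and the age of the adult mice were not given in the sources used here.

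Spermatids assemble the sperm tail, whose core is a motile cilium, and pack their DNA with protamines. CREM is the cAMP response element modulator, a bZIP factor that drives many spermatid genes, and FHL5, also called ACT, is a LIM protein that serves as its coactivator in these cells. RFX2, RFX3 and FOXJ1 are regulators of ciliary genes in many tissues, and RFX2 is required for spermatid development. SOX30 and TCFL5 are germ cell factors needed for spermatogenesis. TBPL1, TAF7L and GTF2A1L are relatives of the general factors TBP, TAF7 and GTF2A1, which place RNA polymerase II at promoters.

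Values were FPKM, fragments scaled to transcript length and by a divisor for each library, so that levels of different genes can be compared per length. Without replicates, no test between stages was possible, and each interval given here is an exact 95% interval that covers counting error only. Fragments behind a value were recovered from the FPKM steps, with a value of 1 fragment between 0.0455 FPKM at d24 and 0.112 FPKM in adult testis for a transcript of 1 kb. For genes with several curated transcripts the shortest was used, which makes the interval wide rather than narrow. The libraries held between 8907090 fragments on genes at d12 and 23681900 at d24. The recovered divisor was 12518800 fragments at d12 and 8913080 in adult testis, where 12048400 fragments lay on genes. The divisors thus did not run with the fragments on genes. The tissue markers were those of testis. The summed level of 6 markers of Sertoli cells, the somatic support cells of the tubules, lay at 180.6 FPKM at d12 and 63.0 FPKM in adult testis. The sum of 6 markers of pachytene spermatocytes lay at 107.4 (d12), 1380 (d16) and 4768 FPKM (d24). The sum of 6 round spermatid markers lay at 3.19 (d12), 4.85 (d16), 402.4 (d24) and 1046 FPKM (adult). In whole testis, a change in the share of a cell type and a change of RNA per cell cannot be told apart.

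Promoter sequences (250 bases before to 50 bases after each start, RefSeq, GRCm38.p6) were found for 8 of the 10 genes in 9 windows, and not for Crem and Foxj1. The windows ranged widely in base composition. Rfx2 had 75.7% G and C with 38 CG dinucleotides, Tcfl5 73.0% with 35 and Sox30 70.0% with 28, whereas Taf7l had 47.0% with 17 and the windows of the Fhl5 starts 42.7% with 2 and 39.3% with 3. Over all 32851 windows the median was 52.7% with 7. The 250 bases upstream of 3 genes are shown because their courses over the stages contrast. Fhl5 (chr4:25242853-25243102, minus strand) came up last, Rfx2 (chr17:56831009-56831258, minus strand) came up between d12 and d24, and Taf7l (chrX:134476491-134476740, minus strand) was highest at d12. Capitals mark matches on either strand to a SOX site (AACAAT) in Fhl5, to the CRE core (TGACG) in Rfx2, and to a TATA box (TATAAA, with an overlapping match on the other strand) and an E-box (CACGTG) in Taf7l.
Fhl5: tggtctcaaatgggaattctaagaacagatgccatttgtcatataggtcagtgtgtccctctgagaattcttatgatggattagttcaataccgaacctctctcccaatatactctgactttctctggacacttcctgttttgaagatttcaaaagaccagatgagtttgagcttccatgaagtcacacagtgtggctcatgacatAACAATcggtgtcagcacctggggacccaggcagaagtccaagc
Rfx2: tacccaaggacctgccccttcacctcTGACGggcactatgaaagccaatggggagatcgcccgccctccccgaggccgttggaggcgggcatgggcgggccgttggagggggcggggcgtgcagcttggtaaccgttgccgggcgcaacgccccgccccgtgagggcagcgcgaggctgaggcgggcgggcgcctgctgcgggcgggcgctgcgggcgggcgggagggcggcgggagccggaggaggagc
Taf7l: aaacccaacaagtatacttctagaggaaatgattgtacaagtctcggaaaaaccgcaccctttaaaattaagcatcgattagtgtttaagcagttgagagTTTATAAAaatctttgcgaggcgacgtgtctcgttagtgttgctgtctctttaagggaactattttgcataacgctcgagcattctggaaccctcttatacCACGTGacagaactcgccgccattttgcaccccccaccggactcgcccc

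Fhl5 held the SOX site at -44 to -39 relative to the start and again at 25 to 30 after it. The SOX site was in 1 of the 9 windows and in 10.7% of all windows. Taf7l held the E-box at -49 to -44, and this motif was in 7.15% of all windows. Its TATA box lay far from the usual place, at -148 to -143, and 13.6% of all windows held these letters. Rfx2 held the CRE core at -224 to -220, which 20.8% of all windows did, and an X-box, the motif of RFX factors, at 35 to 48 after the start, where it reads GTAGCCGTGGAGAC. The X-box was in 4.62% of all windows. The full CRE (TGACGTCA), present in 1.79% of all windows, and a forkhead site (GTAAACA), present in 3.65%, were in none of the 9 windows. These letters describe the windows and say nothing of binding.

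**Figure D1:**
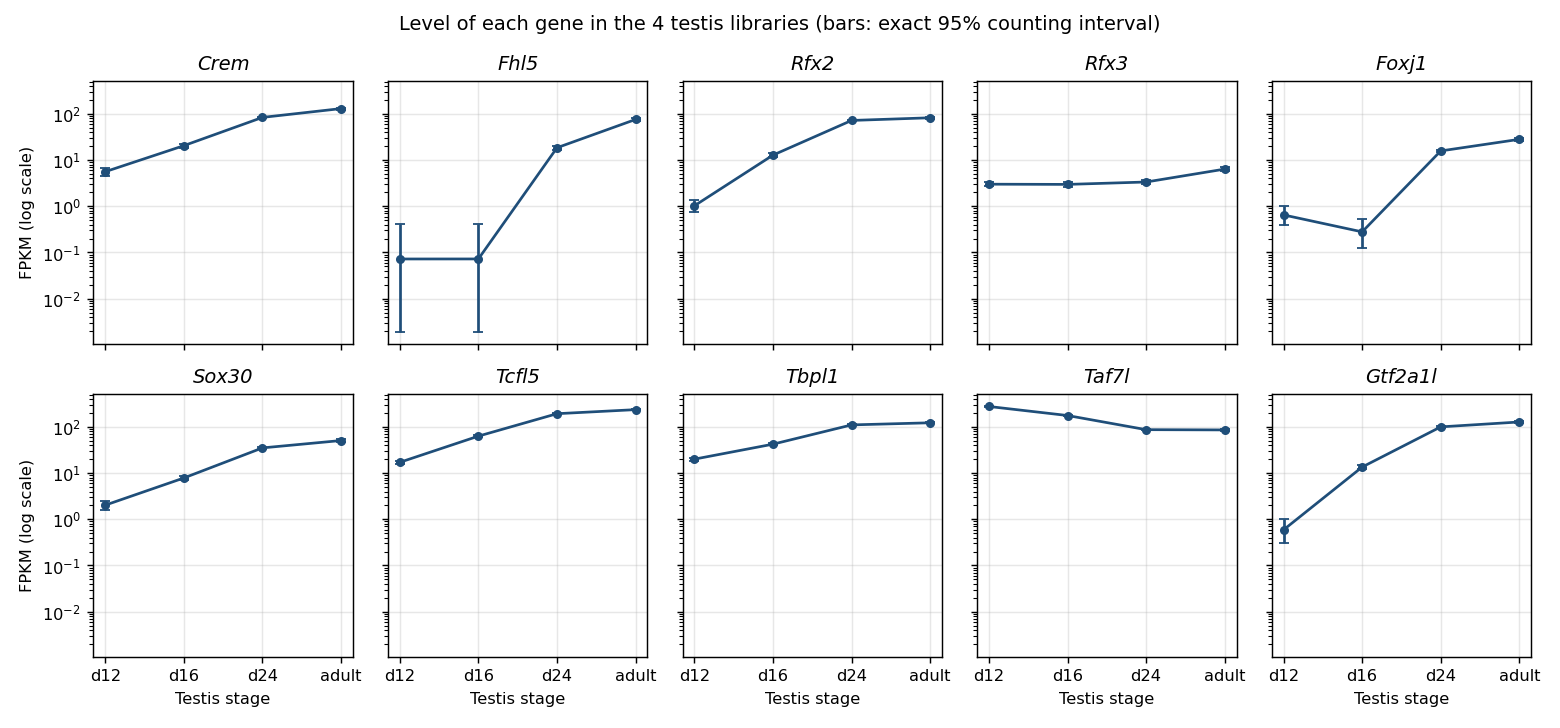
FPKM of the 10 genes (y axis, log scale) at the 4 testis stages (x axis), 1 library per point, with bars for the exact 95% counting interval. Of the 10 genes, 8 were at least 2-fold higher at d24 than at d16 (6 after scaling to equal FPKM sums), Rfx3 stayed between 2.98 and 6.39 FPKM, and Taf7l was lower at each later stage than at d12.

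Crem (chromosome 18, 3266354 to 3337773, minus strand) had 5.61 (d12), 20.5 (d16), 84.0 (d24) and 130.4 FPKM (adult). It was thus higher at each stage than at the one before, and its percentile among all genes was 68.5 at d12 and 95.7 in the adult. The d16 value was 3.66 times the d12 value (2.94 to 4.62), the d24 value 4.09 times the d16 value (3.66 to 4.57) and adult testis 1.55 times the d24 level (1.46 to 1.65). Crem has 19 curated transcripts of 1440 to 2912 bases, among them activator and repressor forms. The table gives their sum, so the values do not tell which form was made.

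Creb1, the broadly expressed relative of Crem, went the other way. It had 16.5 (d12), 14.4 (d16), 8.99 (d24) and 7.45 FPKM (adult). The ratio of Crem to Creb1 within a library, which does not depend on how libraries are scaled, was 0.340 at d12 (0.275 to 0.415), 1.43 at d16 (1.27 to 1.60), 9.35 at d24 (8.79 to 9.95) and 17.5 in adult testis (15.9 to 19.3). Creb1 was the more abundant of both only at d12. Atf1, the third gene of this group, stayed between 15.8 and 26.0 FPKM.

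Fhl5 (chromosome 4, 25199907 to 25242852, minus strand) had 0.0723 FPKM at d12 and 0.0724 at d16, which is 1 fragment at each stage. It then reached 18.5 FPKM at d24 and 75.9 FPKM in the adult. The coactivator was therefore near the limit of detection in both libraries in which Crem already had 101 and 370 fragments. From d16 to d24 the ratio was 256 (43.7 to 9685), an interval set by the single fragment at d16. From d24 to adult testis it was 4.10 (3.63 to 4.63), and Fhl5 was the only one of the 10 genes past 2-fold in this step, also when libraries were set to equal FPKM sums or equal upper quartiles.

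Fhl5 belongs to a family of LIM proteins with 4 other measured genes. Fhl1, a muscle form, went from 18.9 FPKM at d12 to 5.22 in adult testis, Fhl2 from 29.3 to 4.43 and Fhl3 from 2.37 to 0.399. Fhl4, a testis form, had 2.09 (d12), 42.2 (d16), 464.3 (d24) and 696.9 FPKM (adult). Fhl4 was thus already up at d16, before Fhl5, and remained the higher of both. Fhl5 was 14.5 times Fhl1 in adult testis (11.8 to 18.0) and 17.1 times Fhl2 (13.0 to 22.9), whereas at d16 Fhl1 was 133.7 times and Fhl2 255.5 times Fhl5. No other annotated transcript was at least 95% identical to Fhl5 over at least 80% of its length, and the longest match, to Fhl2, was 67.8% identical.

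Of 9 partners and relatives of CREM, none was 2-fold apart between d12 and d16, beside 12.6% higher and 3.67% lower among all genes. From d16 to d24, 2 were at least 2-fold higher, beside 27.5% of all genes tested, and 2 from d24 to adult testis, beside 11.4%, in both steps Kif17 and Creb3l4. Kif17, a kinesin that carries FHL5 out of the spermatid nucleus, had 0.541 (d12), 0.715 (d16), 25.4 (d24) and 86.8 FPKM (adult). At d16 Kif17 was at 0.824% of its adult level and Fhl5 at 0.0954%, and at d24 they were at 29.3% and 24.4%. Creb3l4, a membrane-bound bZIP factor of spermatids, had 1.29, 1.60, 78.7 and 236.8 FPKM at the 4 stages. The general coactivators Crebbp and Ep300 lay between 10.00 and 20.6 FPKM throughout.

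Genes known to depend on CREM were at no more than 14.1% of their highest level at d16, the value of Ldhc. Of 9 such genes, all 9 were at least 2-fold higher at d24 than at d16, beside 27.5% of all genes tested, and 8 were at least 2-fold higher in adult testis than at d24, beside 11.4%. Several of the 9 passed the filter only through d24 and adult testis, which favours a rise after d16. At d16, Prm1, Tnp1, Tnp2, Smcp and Odf1 had at most 6 fragments. Prm1, a protamine, had 1.20 (d16), 517.4 (d24) and 6208 FPKM (adult), so that its d24 level was 8.33% of the adult level while Crem was at 64.4%. Prm2, the other protamine, had 2.35, 624.3 and 10910.3 FPKM at these stages, and Tnp1, a transition protein, 0.563, 460.5 and 4147 FPKM. Ldhc, the germ cell lactate dehydrogenase, was the only 1 of the 9 at least 2-fold higher at d16 than at d12, beside 12.6% of all genes tested. It had 5.24 FPKM at d12 and 389.2 at d16, and at d24 it was at 81.9% of its adult level, above Crem. Of the 9, 4 were at least 2-fold lower at d16 than at d12, beside 3.67% of all genes tested. These were Prm1, Tnp1, Tnp2 and Odf1, with 5 to 17 fragments at d12 and 1 to 6 at d16. Ace, whose testis form starts from a promoter inside the gene, had 3.42 (d16), 20.5 (d24) and 103.1 FPKM (adult). Prm1, Prm2, Tnp1, Tnp2 and Odf1 of this list also served as markers of elongating spermatids, and Ldhc as a marker of pachytene spermatocytes.

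Rfx2 (chromosome 17, 56775897 to 56831008, minus strand) had 1.02 (d12), 12.8 (d16), 72.2 (d24) and 82.5 FPKM (adult). Most of its increase lay before d24, where it had 87.5% of the adult level. The d16 value was 12.5 times the d12 value (9.14 to 17.6), and the d24 value 5.63 times the d16 value (5.15 to 6.18). From d24 to adult testis the ratio was 1.14 (1.09 to 1.20), and this direction turned when libraries were set to equal FPKM sums (log2 change -0.29) or equal upper quartiles (-0.05).

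Rfx3 (chromosome 19, 27761721 to 28014669, minus strand) had 3.01 (d12), 2.98 (d16), 3.36 (d24) and 6.39 FPKM (adult). Neither of the early steps went beyond counting error, with ratios of 0.990 (0.849 to 1.15) and 1.13 (0.987 to 1.29), and Rfx3 was the lowest of the 10 genes in adult testis. Adult testis had 1.90 times the d24 level (1.69 to 2.14), which remained an increase after either rescaling (log2 change 0.44 and 0.67). At d12 Rfx3 was 2.94 times Rfx2, and from d16 on Rfx2 was the higher of both, with a ratio of 4.31 at d16 (3.75 to 4.95), 21.5 at d24 (19.9 to 23.4) and 12.9 in adult testis (11.7 to 14.2). The ratio was thus lower in adult testis than at d24 by more than counting error.

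Of the 6 other RFX genes, 5 passed the filter of a mean of at least 1 FPKM. Rfx4 and Rfx8 ran beside Rfx2. Rfx4, known from brain and testis, had 0.415 (d12), 6.83 (d16), 31.4 (d24) and 37.2 FPKM (adult). Rfx8 had 0.599, 5.52, 39.5 and 47.9 FPKM. Rfx1 came up later, with 1.09 (d16), 4.12 (d24) and 6.85 FPKM (adult), while Rfx7 went from 9.95 FPKM at d12 to 5.38 in adult testis. Rfx6, a pancreas factor, had at most 0.363 FPKM. Among the RFX genes, Rfx2 had the highest level at d16, d24 and in adult testis, and Rfx7 at d12.

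**Figure D2:**
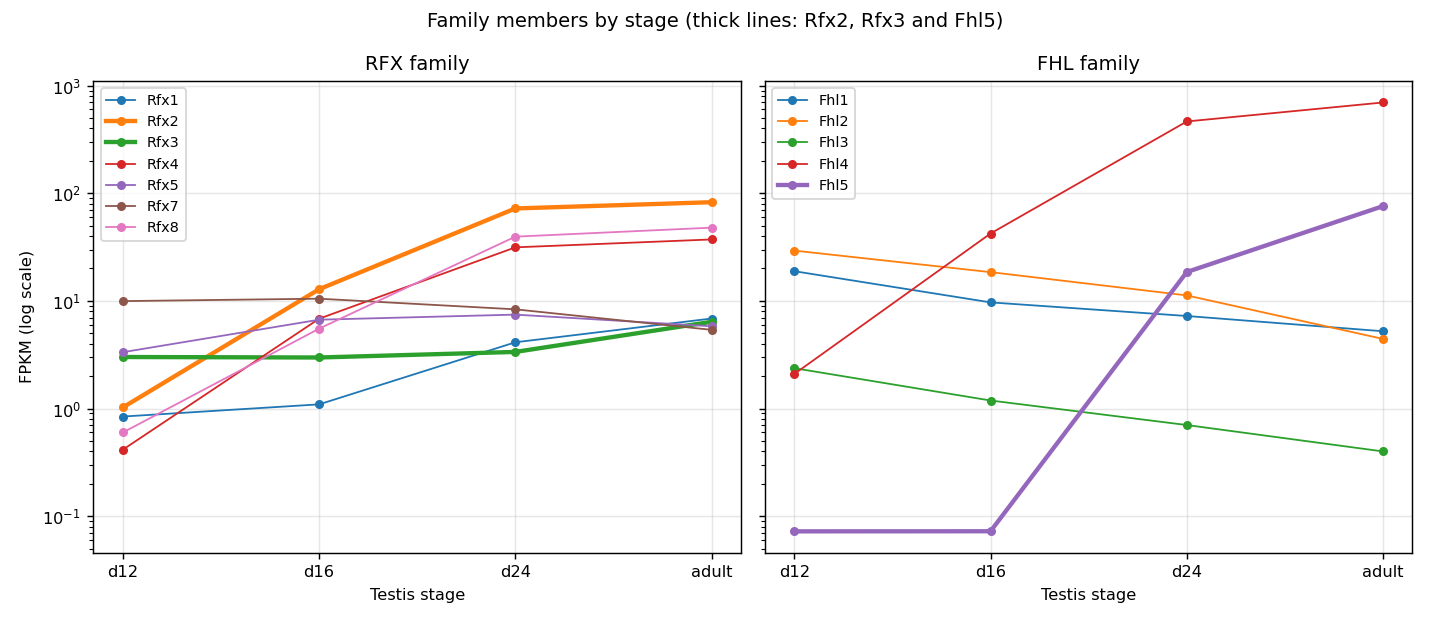
FPKM (y axis, log scale) of the RFX genes on the left and the FHL genes on the right at the 4 testis stages (x axis), with Rfx2, Rfx3 and Fhl5 as thick lines and Rfx6, below 1 FPKM throughout, left out. Rfx2, Rfx4 and Rfx8 came up by d16 while Rfx3 lay between 2.98 and 3.36 FPKM until d24, and Fhl4 came up by d16 while Fhl5 came up at d24.

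Foxj1 (chromosome 11, 116330704 to 116335499, minus strand), the master regulator of motile cilia in airway and ependyma, had 0.650 (d12), 0.279 (d16), 15.8 (d24) and 28.2 FPKM (adult). It was low in both early libraries, with 21 and 9 fragments, and 56.6 times higher at d24 than at d16 (29.7 to 124.1). Adult testis had 1.78 times the d24 level (1.61 to 1.98), and the direction held after rescaling to the same sum (log2 change 0.35) and by the upper quartile (0.59). Foxj1 was thus at 0.991% of its adult level at d16, where Rfx2 was at 15.5%.

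The d12 value of Foxj1 was 2.33 times that at d16 (1.02 to 5.78). Markers of other cells also differed between these libraries. Of 6 elongating spermatid markers, 5 were at least 2-fold lower at d16 than at d12, beside 3.67% of all genes tested. The summed levels of the 6 were 13.1 FPKM at d12 and 4.33 at d16. The 5 lower ones had 4 to 17 fragments at d12 and at most 6 at d16. Most of them passed the filter only through later stages, so the share over all genes is not a like comparison. The round spermatid markers rose in sum, from 3.19 to 4.85 FPKM, through Spaca1 (2.03 and 3.53 FPKM) and Tssk1 (0.385 and 1.21 FPKM). Their median log2 change was -0.37. Of these 6, 1 was at least 2-fold higher, beside 12.6% of all genes tested, and 1 lower, beside 3.67%. Of 6 markers of efferent duct and epididymis, the ciliated and secretory ducts beside the testis, none passed the filter, and their sum was between 0.192 FPKM at d16 and 2.28 FPKM at d24, with 1.33 FPKM at d12. Within that list, Pax8 had 1.27 FPKM at d12 (41 fragments) and 0.0934 at d16 (3 fragments), while Lcn5 and Lcn8 were listed at 0 in every library. The part of these cells in the early Foxj1 fragments was not tested.

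Other regulators of multiciliated cells were near or below 1 FPKM or changed less than Foxj1. Mcidas and Gmnc, the switches that start multiciliation upstream of Foxj1 in airway cells, had at most 0.0340 and 0.221 FPKM in any library. Gmnc was listed at 0 at d12 and d16 and had its 0.221 FPKM at d24 (20 fragments, 0.134 to 0.339), the stage at which Foxj1 also came up. In adult testis Gmnc was lower, at 0.0512 FPKM (2 fragments), while Foxj1 was higher than at d24. Ccno had at most 0.897 FPKM, Trp73 0.125 and Myb 0.350. The remaining 5 of these 10 genes, Foxj2, Foxj3, E2f4, E2f5 and Tfdp1, passed the filter, and none of them was 2-fold apart in any step between neighbouring stages. Of all genes tested, 12.6%, 27.5% and 11.4% were at least 2-fold higher in these steps, in order, and 3.67%, 8.45% and 2.2% lower. Foxj3 had 22.1 FPKM at d12 and 7.57 in adult testis, and Foxj2 had 5.80 and 2.13.

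Many genes known as targets of RFX or FOXJ1 factors were already higher at d16, where Foxj1 was not. Of 17 such genes, 13 passed the filter, in part through their later stages, and these 13 were at least 2-fold higher at d16 than at d12, beside 12.6% of all genes tested. From d16 to d24, 9 of the 13 were at least 2-fold higher, beside 27.5%, and from d24 to adult testis none was, beside 11.4%. Ift172, a subunit of intraflagellar transport, had 9.17 (d12), 37.8 (d16) and 126.2 FPKM (d24). Tekt1, a filament protein of the axoneme, had 2.83, 47.5 and 301.7 FPKM, and Rsph1, a radial spoke protein, had 53.9, 747.0 and 2189 FPKM. Ccdc39, which sets the length of axonemal repeats, had 14.0 (d12), 99.0 (d16) and 308.4 FPKM (d24), and Spag6, of the central pair, 1.33, 35.4 and 238.0 FPKM. At d16 the median of the 17 genes lay at 27.4% of their highest stage. The axonemal dynein chains Dnah5, Dnah9 and Dnah11 of multiciliated cells and Rsph4a did not pass the filter, with at most 0.879 FPKM. Of these, Dnah5 (0.107 and 0.0717 FPKM) and Dnah11 (0.278 and 0.182 FPKM) were lower at d16 than at d12. Dnah9 (0.157 and 0.192 FPKM) and Rsph4a (0.197 and 0.438 FPKM) were higher at d16. For each of these genes the counting intervals of d12 and d16 overlapped.

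Sox30 (chromosome 11, 45979069 to 46017992, plus strand) had 2.03 (d12), 7.85 (d16), 35.2 (d24) and 50.8 FPKM (adult). It was higher at each stage than before, by 3.88 times (3.00 to 5.06), 4.48 times (3.97 to 5.08) and 1.44 times (1.35 to 1.54). Rescaled to the same FPKM sum, the last step was close to level (log2 change 0.05). Sox30 and Crem were the pair of the 10 genes with the most similar course. Their log2 values, each centred on the gene's own mean, differed by at most 0.10 at any of the 4 stages, while Crem was higher per length in every library.

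Tcfl5 (chromosome 2, 180621956 to 180642691, minus strand), a bHLH factor, had 17.1 (d12), 63.3 (d16), 193.7 (d24) and 237.1 FPKM (adult). It was the highest of the 10 genes at d24 and in adult testis, ranked 394 and 516 from the top of all genes. The ratios were 3.69 (3.33 to 4.09), 3.06 (2.91 to 3.22) and 1.22 (1.18 to 1.27) over the 3 steps, and the last turned after scaling to equal FPKM sums (log2 change -0.19) but not with the upper quartile (0.05). Tcfl5 overlaps Col9a3 on the other strand over part of its transcript, and Col9a3 had at most 4.37 FPKM.

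Tbpl1 (chromosome 10, 22703877 to 22732666, minus strand) had 20.1 (d12), 42.4 (d16), 110.8 (d24) and 123.1 FPKM (adult). This gene, also known as TRF2, was higher at each stage than before, by 2.11 times (1.93 to 2.31), 2.61 times (2.47 to 2.77) and 1.11 times (1.07 to 1.16), and the last step turned under both rescalings (log2 change -0.33 and -0.09). Tbp, the TATA-binding protein, followed the same course, with 27.01 (d12), 58.5 (d16), 130.1 (d24) and 145.4 FPKM (adult). The ratio of Tbpl1 to Tbp was 0.744 (0.667 to 0.829), 0.724 (0.672 to 0.779), 0.851 (0.821 to 0.883) and 0.846 (0.802 to 0.893) over the 4 stages. It was thus higher at d24 than at d16 beyond counting error, by a small amount, and Tbpl1 was below Tbp per length in every library. A Tbp transcript shares 1160 bases with the neighbouring Pdcd2, so its values are less certain. Tbpl2, the oocyte form, was listed at 0 in all 4. Tbpl1 overlaps Slc2a12 on the other strand, which had at most 2.64 FPKM.

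Gtf2a1l (chromosome 17, 88665493 to 88715157, plus strand), also called ALF, had 0.592 (d12), 13.5 (d16), 100.4 (d24) and 128.1 FPKM (adult). It had the largest increase of the 10 genes from d12 to d16, 22.9 times (12.9 to 44.8), and was 7.42 times higher again at d24 (6.56 to 8.42). Adult testis had 1.28 times the d24 level (1.21 to 1.35), which turned after scaling to equal FPKM sums (log2 change -0.13) and not with the upper quartile (0.11). Gtf2a1, the general subunit, stayed between 18.8 and 28.3 FPKM, and shares a stretch of 1172 bases at 93.7% identity with Gm5435. Gtf2a1 was 31.8 times Gtf2a1l at d12 and 1.95 times at d16, and Gtf2a1l was 3.55 times Gtf2a1 at d24 (3.38 to 3.72) and 5.79 times in adult testis (5.38 to 6.24). The order of both was thus exchanged between d16 and d24.

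Taf7l (chromosome X, 134460116 to 134476505, minus strand) took the opposite course. It had 277.4 (d12), 176.9 (d16), 87.3 (d24) and 86.2 FPKM (adult), which ranked it 108 from the top of all genes at d12 and 1588 in adult testis. The d16 value was 0.638 times the d12 value (0.613 to 0.663), and the d24 value 0.494 times the d16 value (0.472 to 0.516), while d24 and adult testis did not differ beyond counting error (0.988, 0.929 to 1.05). Rescaled to the same FPKM sum, this last step was a decrease (log2 change -0.50). Taf7, its autosomal relative, went from 48.5 FPKM at d12 to 45.1, 29.1 and 26.2, so Taf7l was above Taf7 in every library, by 5.72 times at d12 (5.44 to 6.01), 3.93 times at d16 (3.72 to 4.15), 3.00 times at d24 (2.85 to 3.17) and 3.29 times in adult testis (3.01 to 3.59). A further relative, 4933416C03Rik (Taf7l2 in the annotation), was named after its values were seen. It had 9.14 (d12), 44.2 (d16), 123.2 (d24) and 116.3 FPKM (adult), and was above Taf7l from d24 on. Their transcripts were 71.2% identical over 1123 bases.

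**Figure D3:**
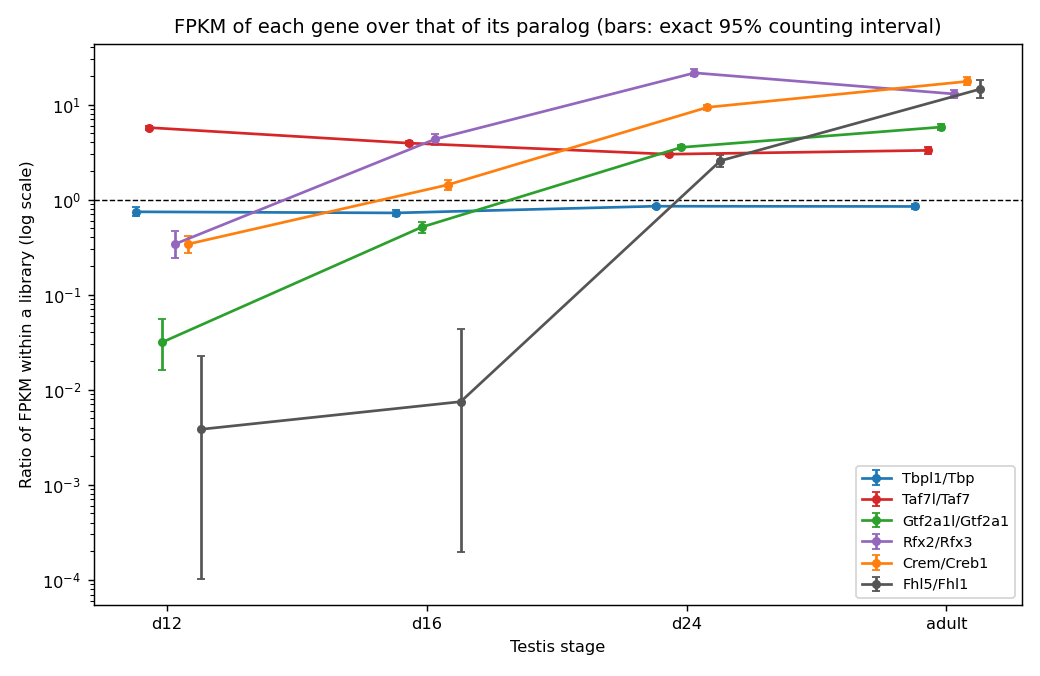
Ratio of the FPKM of each gene to that of a paralog in the same library (y axis, log scale) at the 4 stages (x axis), with exact 95% counting intervals and a dashed line at 1. Crem and Rfx2 crossed their paralogs by d16 and Gtf2a1l and Fhl5 by d24, while Tbpl1 stayed between 0.724 and 0.851 times Tbp and Taf7l between 3.00 and 5.72 times Taf7.

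From d12 to d16, 6 of the 10 genes were at least 2-fold higher, beside 12.6% of all 13901 genes whose mean reached 1 FPKM. These were Crem, Rfx2, Sox30, Tcfl5, Tbpl1 and Gtf2a1l. None was 2-fold lower, beside 3.67% of all genes, on the log2(FPKM + 0.1) scale. Foxj1 had a log2 change of -0.98 on this scale and of -0.37 with a pseudocount of 1, while the ratio of its FPKM values was 0.429, from 21 and 9 fragments. Tbpl1 was near the threshold too, with a log2 change of 1.07 and of 0.96 after scaling to equal FPKM sums. The median log2 change of the 10 genes was 1.46, that of all genes 0.

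From d16 to d24, 8 of the 10 genes were at least 2-fold higher, beside 27.5% of all genes, since Fhl5 and Foxj1 joined the 6. Fhl5 and Foxj1 were below 1 FPKM at d12 and d16. They passed the filter only through d24 and adult testis, which favours a rise after d16. Taf7l was the only one of the 10 at least 2-fold lower, beside 8.45% of all genes, with a counting interval (0.472 to 0.516) that reached across the threshold. The median log2 change was 2.09 for the 10 genes and 0.13 for all genes. Rescaling each library to the same FPKM sum moved the median of all genes to -0.48 and left 6 of the 10 at least 2-fold higher, without Tcfl5 (log2 change 0.99) and Tbpl1 (0.77). Rfx3, with a log2 change of 0.17, turned to -0.43 and with the upper quartile to -0.11.

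From d24 to adult testis, Fhl5 was the only 1 of the 10 genes at least 2-fold higher, beside 11.4% of all genes, and none was 2-fold lower, beside 2.2%. The median log2 change was 0.44 for the 10 genes and -0.02 for all genes. With the same FPKM sum these medians were -0.04 and -0.49, and with the upper quartile 0.20 and -0.25. As deposited, 9 of the 10 genes were higher in adult testis, and with the same FPKM sum 5 were.

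**Figure D4:**
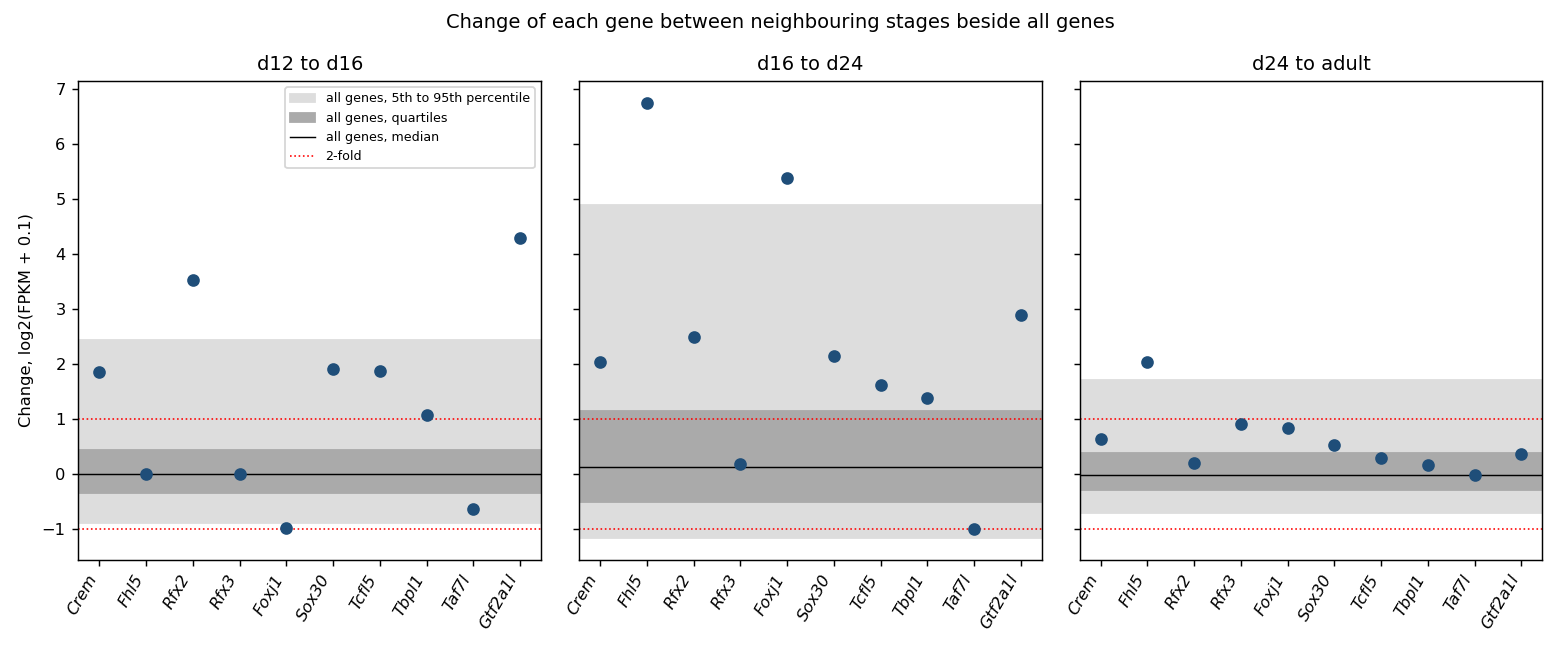
Log2 change of each of the 10 genes (points) in the 3 steps between neighbouring stages, on the log2(FPKM + 0.1) scale, over bands for the quartiles and the 5th to 95th percentile of all 13901 genes tested and dotted lines at 2-fold. The points lay mostly above the quartiles of all genes in the early steps and nearer to them from d24 to adult testis, where only Fhl5 passed 2-fold, as it also did with the same FPKM sum or upper quartile in each library.

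Relative to their highest stage, the genes differed at d16, with Crem, Rfx2 and Sox30 close together. At d16, Tbpl1 was at 34.4%, Tcfl5 at 26.7%, Crem at 15.8%, Rfx2 at 15.5%, Sox30 at 15.5% and Gtf2a1l at 10.6%, whereas Foxj1 was at 0.991% and Fhl5 at 0.0954%. The markers of pachytene spermatocytes had a median of 30.2% at d16, with a range of 1.23% to 66.5%, and a median of 98.0% at d24. The lowest of them at both stages was Pgk2, at 1.23% and 40.4%. The round spermatid markers had medians of 0.0650% and 41.4%, and the elongating spermatid markers 0.0132% and 12.6%. At d24, Foxj1 was at 56.1% and Fhl5 at 24.4%, between the medians of these marker lists. These percents depend on the scaling between libraries.

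**Figure D5:**
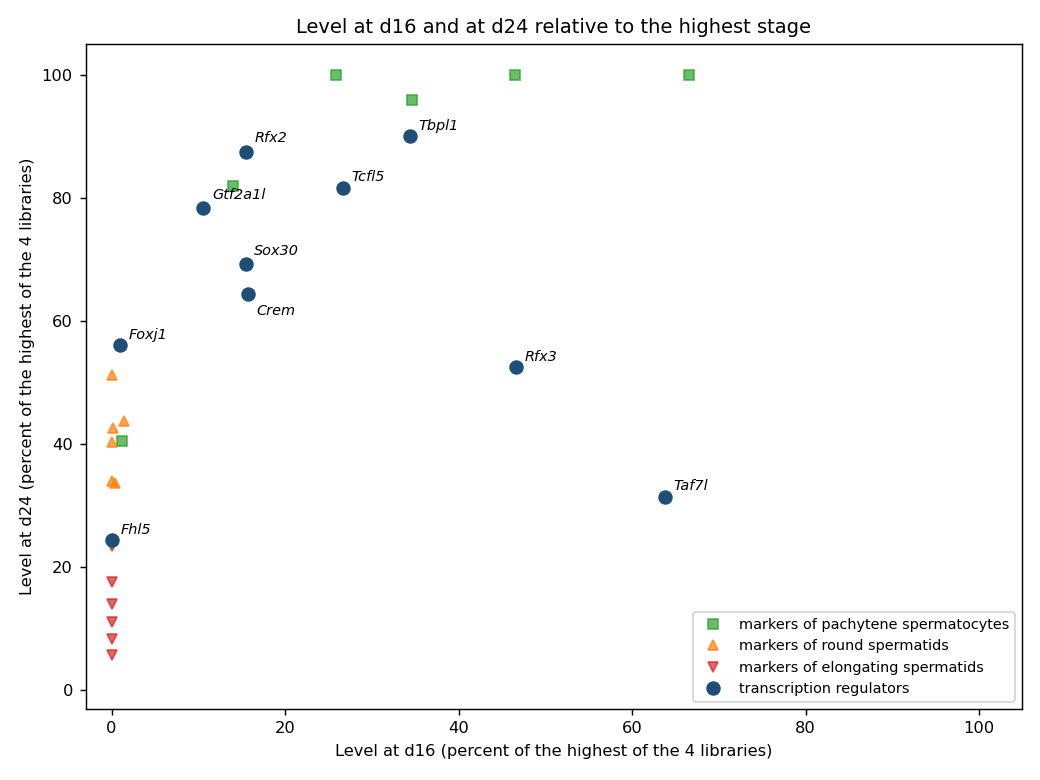
Level at d16 (x axis) and at d24 (y axis), each as a percent of the highest of the 4 libraries, for the 10 genes (circles, named) and for markers of pachytene spermatocytes (squares), round spermatids (triangles up) and elongating spermatids (triangles down). Foxj1 and Fhl5 sat at the left edge with the spermatid markers and the pachytene marker Pgk2. Of the others, 6 genes lay between 10.6% and 34.4% at d16, and Rfx3 and Taf7l lay apart from both.

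By level per length, the order in adult testis was Tcfl5, Crem, Gtf2a1l, Tbpl1, Taf7l, Rfx2, Fhl5, Sox30, Foxj1 and Rfx3. Crem, Gtf2a1l and Tbpl1 (130.4, 128.1 and 123.1 FPKM) had overlapping counting intervals, as did Taf7l and Rfx2 (86.2 and 82.5 FPKM) and Rfx2 and Fhl5 (82.5 and 75.9 FPKM). At d12 the order was Taf7l, Tbpl1, Tcfl5, Crem, Rfx3, Sox30, Rfx2, Foxj1, Gtf2a1l and Fhl5. There the intervals of Tbpl1 and Tcfl5, of Rfx2 and Foxj1, of Foxj1 and Gtf2a1l and of Gtf2a1l and Fhl5 overlapped, and Taf7l at 277.4 FPKM stood far above Tbpl1 at 20.1 FPKM.

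Genes with a similar course over the 4 libraries were looked up among those with a mean of at least 5 FPKM, by the largest difference of centred log2 values at any stage. With only 4 points, a small difference is a description and no more. The closest to Crem were Ccdc181 (0.09), Sox30 (0.10) and Limd2 (0.11), and to Sox30 Eno4 (0.08), Limd2 (0.09) and Crem (0.10). The closest to Rfx2 were Spesp1 (0.04), Cfap44 (0.05) and Ccdc13 (0.07), and to Gtf2a1l Drc1 (0.10), Sept12 (0.14) and Ccdc113 (0.15). Cfap44 and Drc1 code for parts of the sperm axoneme. The closest to Fhl5 were 1700009N14Rik (0.06), Wbscr28 (0.08) and Scp2d1 (0.09), to Tcfl5 AK129341 (0.04), Ccdc104 (0.06) and Necab1 (0.07), and to Tbpl1 Bin3 (0.04), Nme7 (0.06) and Gps2 (0.07). The closest to Rfx3 were Tax1bp1 (0.03), Pgap2 (0.07) and Ndufa13 (0.08). Those to Taf7l were Kank2, Nrp1 and Ctsz (all 0.04), none of them a germ cell regulator by name. Foxj1 had the fewest close genes, a distance that includes its d12 and d16 values of 21 and 9 fragments. Its closest genes, 1700007K13Rik (0.21), Vash2 (0.22) and Gm21671 (0.26), were farther off, and 10 genes lay within 0.5 of it, against 1385 for Taf7l and 143 for Crem.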

How the data were processed

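Strand-specific paired-end RNA-seq libraries were made from testis, 1 per stage (d12, d16, d24, adult). The authors mapped the reads to GRCm38/mm10 with TopHat2 2.1.0 (bowtie 1.1.2, RefSeq genes, 1 alignment per pair) and deposited FPKM values from Cuffdiff (Cufflinks 2.2.1), which corrected for bias and for reads with several placements. The scaling between libraries, and whether Cuffdiff counted by strand, are not given in the sources used here. H3K27Ac ChIP-seq is not analysed here. The 10 genes, gene lists and markers were chosen with earlier results of these data known. The genes named by rule are the 10, their paralogs, 2 to 4 genes of each list with the highest mean FPKM, and the 3 nearest in course per gene. Other genes of the lists, such as Ace, Ift172, Ep300, Foxj2, Taf1, Sox5, Ovol1 and those near 0, were named after their values were seen.

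Changes are log2(FPKM + 0.1) over 13901 genes whose mean reached 1 FPKM, and past 2-fold counts as higher or lower. Alternatives were 2 rescalings, a pseudocount of 1, 1.5-fold, no filter, and the whole interval beyond 2-fold. Fragments were recovered from FPKM times length of 14604 genes with 1 curated transcript. Between 91.8% and 92.4% of values up to 20 fragments lay within 0.05 of a whole number. Intervals are exact (Poisson for levels, Clopper-Pearson for ratios). Near copies were searched with blastn 2.17.0. Computation in scipy 1.17.1, pandas 2.3.3 and numpy 2.4.6 under python 3.11.15 was tested on simulated data.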

Additional observations from a re-analysis of the deposited data

How the results depend on the processing

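No paired analysis was possible because each stage has 1 library. Each of the 6 counts of genes past 2-fold was recomputed under 5 other settings, and 25 of these values lay within 1.5 times the count in the report. From d12 to d16 the count of lower genes went from 0 to 1 after scaling to equal FPKM sums and to 1 with the upper quartile (Foxj1 in both), and to 2 at 1.5-fold (Foxj1 and Taf7l). From d16 to d24 the count of lower genes went from 1 to 0 where the whole counting interval had to lie beyond 2-fold (Taf7l). From d24 to adult testis the count of higher genes went from 1 to 4 at 1.5-fold (Crem, Fhl5, Rfx3 and Foxj1). Of the 30 log2 changes, 20 moved by more than counting error under either rescaling and 5 with a pseudocount of 1. With no filter on low values, the share of all genes 2-fold lower was 5.88% from d12 to d16 and 3.86% from d24 to adult testis. With 1 library per stage, the spread between animals is unknown, and the intervals cover counting error only. At d16, a value of 3 fragments is 0.240 FPKM for a transcript of 1 kb, 0.227 FPKM for Fhl5 and 0.0931 FPKM for Foxj1. Fhl5, with 1 fragment at d12 and at d16, lay below this limit. Foxj1 lay above it, and its difference between d12 and d16 rests on 21 and 9 fragments.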

Other observations

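Of 18 subunits of TFIID and TFIIA, the general factors beside which TBPL1, TAF7L and GTF2A1L stand, 17 passed the filter. From d12 to d16, Tbp and Taf9 were the 2 at least 2-fold higher, beside 12.6% of all genes tested. From d16 to d24 the 3 genes Tbp, Taf9 and Gtf2a2 were, beside 27.5%, with Taf1 the only 1 at least 2-fold lower, beside 8.45%. Both counts of higher genes are near or below the share over all genes. Taf9, a histone-fold subunit, had 83.5 (d12), 209.0 (d16), 523.4 (d24) and 567.4 FPKM (adult). Taf1, the largest subunit of TFIID, had 40.1, 25.8, 11.5 and 9.37 FPKM. None of the 17 was 2-fold apart between d24 and adult testis, beside 11.4% higher and 2.2% lower among all genes. The median log2 changes of the 17 over the 3 steps were 0.22, 0.26 and 0.02.

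Of 6 other germ cell transcription factors, Mybl1, a regulator of pachytene genes, was already up at d16, with 17.4 (d12), 37.6 (d16), 54.2 (d24) and 52.5 FPKM (adult). Sox5 was late, with 0.825, 0.696, 16.1 and 44.5 FPKM, and was at least 2-fold higher in adult testis than at d24, as Fhl5 was. Taf4b, a germ cell TFIID subunit, went from 26.6 FPKM at d12 to 11.1 in adult testis, in the direction of Taf7l. Ovol1 had 0.468, 1.05, 5.01 and 6.34 FPKM, Nr6a1 6.29, 4.62, 20.2 and 32.3, and Hsf2 14.1, 10.7, 20.1 and 34.5.

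Summed levels of 6 spermatogonial markers were 118.9 FPKM at d12 and 26.1 in adult testis, most of it Dmrt1 (77.4 and 14.8 FPKM). Only Gfra1 of these was higher in the adult (1.20 and 2.41 FPKM). The sum of 6 Leydig cell markers was 131.6 (d12), 82.4 (d16) and 580.7 FPKM (adult). Most of the adult sum was Insl3 (272.8 FPKM) and Cyp17a1 (181.9 FPKM), and only Star was lower in the adult than at d12 (15.1 and 18.8 FPKM). The sum of 6 early meiotic markers was 580.9 (d12), 929.3 (d16) and 580.2 FPKM (adult), most of it Sycp3 (413.8 FPKM at d12 and 507.4 in the adult), while Stra8 went from 86.4 to 12.3 FPKM and Spo11 from 3.76 to 23.5.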
